A study of Homo sapiens with 8 samples.

Results

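The 48 lysosome and autophagy genes described here are the rows of the deposited count table whose gene symbol is in a list of lysosomal enzymes, lysosomal membrane proteins, proton pump subunits, MiT/TFE transcription factors and autophagy genes. All 48 had a row among the 27945 genes of the table, and all 48 passed the filter on low counts. Nascent RNA was measured by fastGRO-seq, a nuclear run-on in which RNA being made in isolated nuclei is labelled with 4-thio-UTP, purified and sequenced. The cells were IMR90, human embryonic lung fibroblasts, carrying ER:RAS, an oncogenic H-RAS fused to the estrogen receptor. There were 4 groups of 2 libraries. Control cells were labelled without an shRNA. The 3 senescent groups carried shControl, shMETTL3 or shMETTL14 and were made senescent by 100 nM 4-hydroxytamoxifen (4-OHT). The study's methods give a harvest on day 6 for the check of senescence markers and state no day for the fastGRO-seq libraries. The shRNAs were delivered by lentivirus, and the labels give 1 shRNA name per target gene. Senescence and shRNA infection cannot be told apart in the comparison with control cells. METTL3 and METTL14 are the subunits of the RNA m6A methyltransferase.

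Lysosomes break down macromolecules with acid hydrolases, and the vacuolar proton pump keeps them acidic. Autophagy delivers cytoplasm to them in vesicles that form under the ULK kinases and the VPS34 lipid kinase complex and are marked by lipid-conjugated LC3 and GABARAP proteins. The MiT/TFE factors TFEB, TFE3 and MITF bind E-box motifs in promoters of many lysosomal genes. Senescent cells are known for an enlarged lysosomal compartment, and the widely used senescence-associated beta-galactosidase stain reads the activity of the enzyme that GLB1 encodes.

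Since the MiT/TFE factors are members themselves, the promoters that hold their motif are shown first. RefSeq promoters (GRCh38.p14, 250 bases before to 50 after the gene start) were at hand for 36 of the 48 members. They were searched on both strands for CACGTG, the core E-box, and for TCACGTGA, the longer form within which the core lies. TCACGTGA was found in 5 of 36 members (13.9%), against 2.30% of the 9792 tested genes with a promoter and 1.18% of all 27305 promoters. CACGTG was found in 7 of 36 (19.4%), against 12.5% and 8.78%. TGANTCA, an AP-1 type motif in which N is any base, was found in 2 of 36 (5.56%, CD63 and TFE3), against 7.35% and 9.37%. The sequences below run 5′ to 3′ on the strand of the gene, with each CACGTG in capitals. GAA is at chr17:80101481-80101580 (plus strand), CTSA at chr20:45891235-45891334 (plus), LAMP1 at chr13:113296989-113297244 (plus), MCOLN1 at chr19:7522524-7522623 (plus), ATP6V0D1 at chr16:67481158-67481257 (minus) and CTSD at chr11:1763928-1764027 (minus).
GAA: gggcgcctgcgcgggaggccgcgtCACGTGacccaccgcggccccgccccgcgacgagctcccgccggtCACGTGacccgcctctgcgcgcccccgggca
CTSA: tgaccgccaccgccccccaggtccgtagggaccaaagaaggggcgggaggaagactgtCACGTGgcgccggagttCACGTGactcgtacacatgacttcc
LAMP1: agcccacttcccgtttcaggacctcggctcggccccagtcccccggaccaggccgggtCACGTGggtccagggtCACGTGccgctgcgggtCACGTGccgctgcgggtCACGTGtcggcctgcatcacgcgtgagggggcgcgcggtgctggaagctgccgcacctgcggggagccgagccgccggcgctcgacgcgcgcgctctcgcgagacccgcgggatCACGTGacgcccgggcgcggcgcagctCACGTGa
MCOLN1: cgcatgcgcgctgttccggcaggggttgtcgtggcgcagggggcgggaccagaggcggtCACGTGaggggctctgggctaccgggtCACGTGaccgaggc
ATP6V0D1: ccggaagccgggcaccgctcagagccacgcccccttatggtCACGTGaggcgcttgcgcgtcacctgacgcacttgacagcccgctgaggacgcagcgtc
CTSD: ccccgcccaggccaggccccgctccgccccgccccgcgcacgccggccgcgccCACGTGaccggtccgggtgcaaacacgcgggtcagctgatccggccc
LAMP1 held 6 copies of the core motif, of which 2 had the longer form. GAA and MCOLN1 held 2 copies of the longer form each, CTSA and ATP6V0D1 held 1 each, and CTSD held the core alone, as did CD63, which is not printed. A match says only that these letters are in the window.

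Library totals ranged from 14897360 to 20306299 counts, of which 21 ribosomal RNA rows took 86.2 to 92.5%. This left 1513930 to 2048475 counts per library on other genes and 9575 to 13379 on the members. The count of METTL3 was 77 and 47 in shControl and 16 and 19 in shMETTL3 cells, a log2 fold change of -2.04 (adjusted p = 1.8e-05, edgeR quasi-likelihood test with Benjamini-Hochberg adjustment over 12844 genes, as for every adjusted p below). METTL14 had 24 and 28 counts in shControl and 18 and 14 in shMETTL14 cells, a log2 fold change of -0.86 that did not pass the threshold of 0.05 (adjusted p = 0.076). All 8 fibroblast marker genes were tested, and their summed count was 23077 and 21787 in control cells and 3085 to 8870 in the senescent libraries. Of these 8, 7 fell in senescence, 7 when METTL14 and 2 when METTL3 was knocked down, and 5 were lower in shMETTL14 than in shMETTL3 cells. Of 5 epithelial markers, KRT8 and KRT18 were tested and passed in that last comparison alone of these 4, at 1.38 (adjusted p = 0.014) and 1.63 (adjusted p = 0.0014). Against control cells KRT8 was lower in shMETTL3 (-1.33, adjusted p = 0.014) and KRT18 higher in shMETTL14 cells (0.89, adjusted p = 0.037). Their part in the members' values was not tested. None of 7 macrophage markers reached the filter, and AIF1 and TYROBP were at 0 in all libraries. Over members with enough counts, the 2 shMETTL3 libraries differed by 6.51 times the variance that counting alone gives, against 1.31 to 1.60 in the other groups. The labels do not say that replicates came from separate cultures, while the study's legends call the fastGRO-seq experiments biologically independent.

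Levels per gene length are given as RPKM, and levels between libraries as normalized counts (scaled by TMM, which assumes that most genes do not change). CD63, a tetraspanin of lysosomes and endosomes, had the highest RPKM of the members in each group, followed by CTSB (cathepsin B). SQSTM1, the p62 cargo receptor, came next in control cells, and PSAP, the precursor of the saposin activators, in the 3 senescent groups. The median RPKM of the members was 0.212 in control and 0.274 in shControl cells, against 0.0913 and 0.0885 over all tested genes. Between 34 and 39 members lay above the median of all tested genes, depending on the group.

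In senescence, 16 of the 48 members rose and 2 fell. Over all tested genes, 13.3% rose and 13.3% fell. The median log2 fold change was 0.32 over the members and -0.03 over all genes. Of the gains, 9 were hydrolases or their activator, and no member of that group fell. After METTL3 knockdown 7 members rose and 7 fell, where 12.3% of all genes rose and 11.2% fell. After METTL14 knockdown 5 rose and 8 fell, where 9.15% rose and 12% fell. The 2 knockdowns were read against the same shControl libraries. In the direct comparison of shMETTL14 with shMETTL3 cells, 7 members were higher and 13 lower, where 16.5% of all genes were higher and 18.7% lower. The members' medians in these 3 comparisons were 0.04, -0.02 and -0.06.

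The scale matters for these counts. When libraries were scaled by their totals only, the median of all genes moved to -0.53 in senescence, 0.58 after METTL3 knockdown, 0.35 after METTL14 knockdown and -0.25 in the direct comparison. The split of members higher and lower then became 8 and 13, 29 and 2, 17 and 1, and 2 and 16. Over all genes the shares higher and lower became, in the same order, 5.85% and 39%, 41.2% and 2.75%, 24.6% and 5.52%, and 9.16% and 27.1%. Relative to all genes the members kept a higher median in senescence on that scale, at -0.17. Spike-in nuclei were added before the run-on, but their reads were not used here, so a change common to all genes was not measured. In these bulk libraries, fewer transcribing cells and less nascent RNA per cell cannot be told apart.

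**Figure D1:**
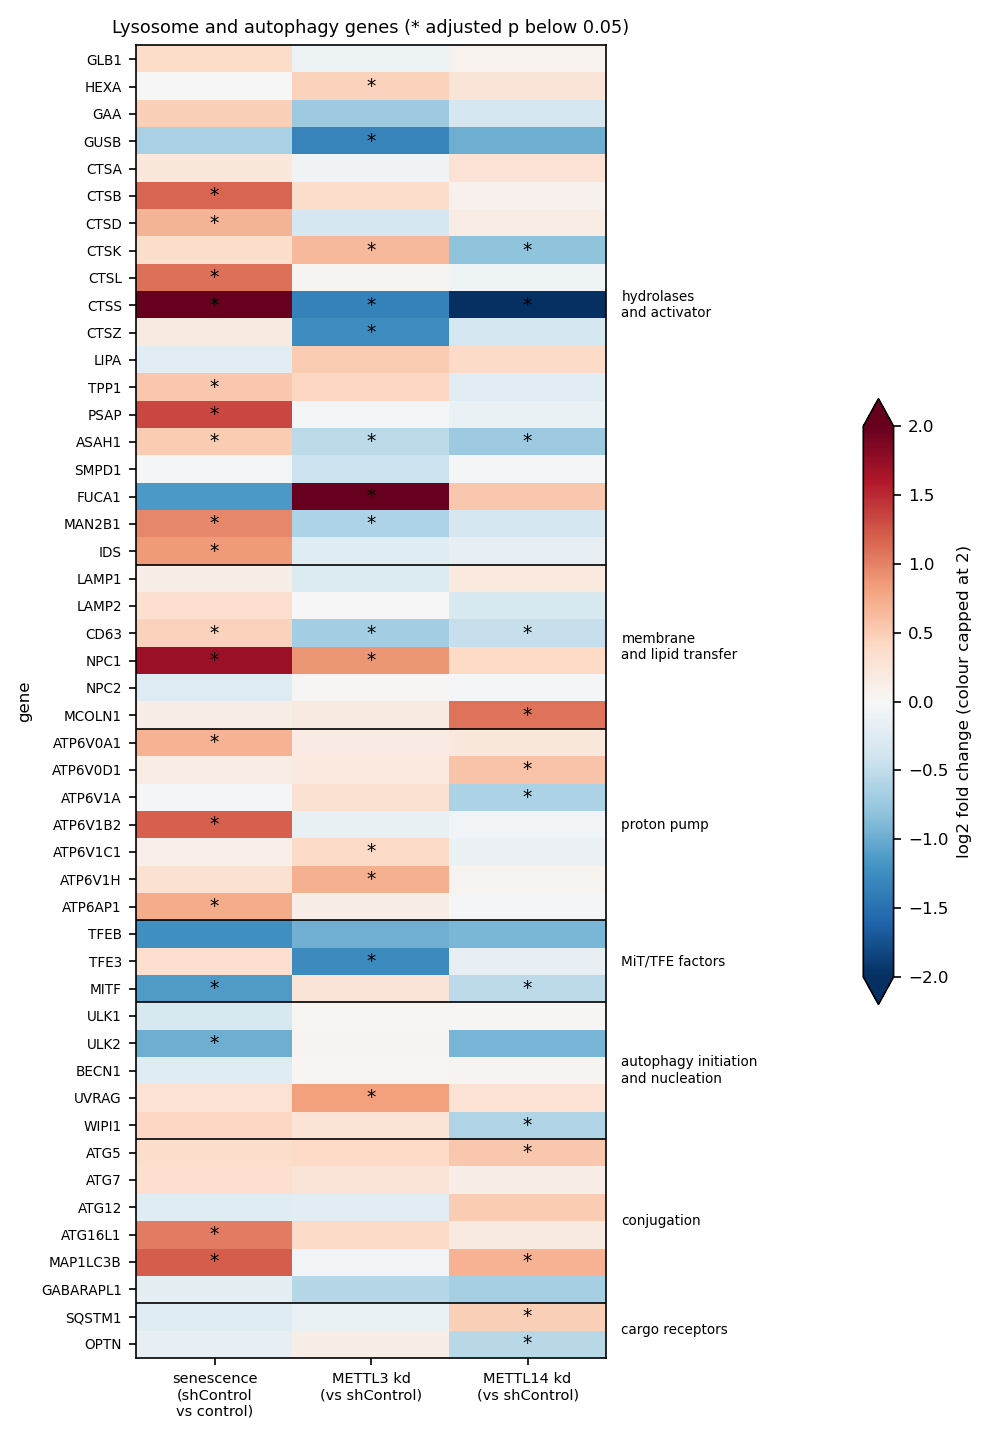
Log2 fold change of each of the 48 members (rows, grouped by role) in senescence and after METTL3 or METTL14 knockdown (kd). Colour is capped at 2 on either side and a star marks an adjusted p below 0.05. Stars in the senescence column are mostly on red cells (16 rose, 2 fell), and both knockdown columns hold red and blue stars.

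CTSS, cathepsin S, a cysteine protease best known from antigen-presenting cells, had the largest change of any member in senescence. It lies at chr1:150702672-150738433 (hg19, minus strand). Its normalized count was 1.77 and 4.35 in control cells, 201 and 162 in shControl, 65.7 and 76.0 in shMETTL3, and 34.98 and 40.02 in shMETTL14 cells. The 4 groups did not overlap, with control lowest and shControl highest. The log2 fold change was 5.83 ± 0.33 (SE) in senescence (adjusted p = 1.3e-13), -1.35 ± 0.20 after METTL3 knockdown (adjusted p = 1.3e-05) and -2.27 ± 0.22 after METTL14 knockdown (adjusted p = 1.6e-08). The control value rests on 2 and 5 raw counts, and without control replicate 2 the senescence value was 6.59. CTSS reached the filter on low counts through the senescent libraries, where it was high. It was not tested where 10 counts were required in every library. The summed count of the 7 macrophage markers was 7 and 8 in control and 9 and 9 in shControl cells. Both knockdown groups still lay above control, by 4.47 in shMETTL3 and 3.55 in shMETTL14 cells.

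CTSK, cathepsin K, a collagen-degrading protease, is the next gene on the same strand, at chr1:150768684-150780917 (hg19), 30251 bases from CTSS with no other gene of the table between them. Its normalized count was 78.8 and 60.1 in control, 83.9 and 93.5 in shControl, 151.8 and 126 in shMETTL3, and 45.0 and 56.9 in shMETTL14 cells. The knockdowns moved it to opposite sides of shControl. It rose by 0.64 after METTL3 knockdown (adjusted p = 0.018) and fell by 0.80 after METTL14 knockdown (adjusted p = 0.011), while senescence gave 0.35 (adjusted p = 0.23). The direct comparison gave -1.45 ± 0.21 (adjusted p = 5.2e-06), and this call was kept with any 1 library left out. The calls against shControl were not, with an adjusted p of up to 0.16 for METTL3 and 0.15 for METTL14 knockdown.

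Among the other cathepsins, CTSB had normalized counts of 943 and 872 in control, 2098 and 1973 in shControl, 2813 and 2367 in shMETTL3, and 2091 and 2208 in shMETTL14 cells. Each senescent library was above each control library. The log2 fold change in senescence was 1.17 ± 0.14 (adjusted p = 2.1e-07), and neither knockdown passed the test. CTSL, cathepsin L, went from 85.0 and 82.7 to 174 and 185, a log2 fold change of 1.10 ± 0.17 (adjusted p = 1e-05), and stayed between 159 and 192 in the knockdown libraries. CTSD, the aspartic protease cathepsin D, rose by 0.68. CTSZ, a carboxypeptidase, did not pass in senescence (0.17) but fell after METTL3 knockdown. It had 70.9 and 59.0 normalized counts in shControl and 30.8 and 23.7 in shMETTL3 cells, with no overlap, a log2 fold change of -1.25 ± 0.27 (adjusted p = 0.001). In shMETTL14 cells it had 54.0 and 47.4.

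GLB1, which encodes lysosomal beta-galactosidase, was not called in senescence or after either knockdown. Its normalized count was 130.2 and 121 in control, 173 and 151 in shControl, 163 and 139 in shMETTL3, and 179.9 and 161 in shMETTL14 cells. The 3 senescent groups overlapped each other, and each of their libraries was above both control libraries. The log2 fold change in senescence was 0.37, with a 95% interval of 0.03 to 0.71, and did not pass the adjusted test (adjusted p = 0.11). It passed in a fit of only the groups compared (0.41, adjusted p = 0.024), with an offset for gene length (0.46, adjusted p = 0.04) and without shMETTL3 replicate 2 (0.38, adjusted p = 0.048), and it was -0.13 with library size alone. It was -0.10 after METTL3 and 0.08 after METTL14 knockdown, neither past the test, but with library size alone the METTL3 value turned to 0.51 and passed (adjusted p = 0.039). Against control cells it passed in shMETTL14 cells (0.44, adjusted p = 0.032) and not in shMETTL3 cells (0.26, adjusted p = 0.21). TMPPE, with 7 to 17 counts a library, lies inside GLB1 on the same strand and takes 6.35% of its span.

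PSAP was at 765 and 714 normalized counts in control and 1954 and 1761 in shControl cells, and 1621 to 1998 in the knockdown libraries. The gain of 1.33 ± 0.14 (adjusted p = 3.2e-08) was not followed by a call in either knockdown. MAN2B1 (lysosomal alpha-mannosidase) rose by 0.96, IDS (iduronate sulfatase) by 0.86, TPP1 (a tripeptidyl peptidase) by 0.54 and ASAH1 (acid ceramidase) by 0.50. The IDS value was 0.56 without shControl replicate 1 (adjusted p = 0.16), and its call was also lost without control replicate 1. The call of TPP1 was lost in 5 of 18 alternatives and that of ASAH1 in 7, among them library size alone (0.05 and 0.01) and either shControl library left out. ASAH1 was at 149 and 157 normalized counts in shControl, 121 and 92.1 in shMETTL3, and 85.0 and 100.04 in shMETTL14 cells. Both knockdown groups were below shControl, by log2 fold changes of -0.52 (adjusted p = 0.042) and -0.73 ± 0.19 (adjusted p = 0.0068). The first of these calls was lost in 7 of 18 alternatives, DESeq2 and library size alone among them, and the second in 4. MAN2B1 also fell after METTL3 knockdown, by 0.62, a call lost in 5 of 18 alternatives.

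GUSB, beta-glucuronidase, was at 43.4 and 42.7 normalized counts in control, 26.0 and 28.9 in shControl, 11.3 and 10.4 in shMETTL3, and 11.99 and 15.8 in shMETTL14 cells. It fell by 1.33 ± 0.39 on the log2 scale after METTL3 knockdown (adjusted p = 0.014), while senescence (-0.64, adjusted p = 0.13) and METTL14 knockdown (-0.98, adjusted p = 0.064) did not pass. The METTL3 call was lost with DESeq2, with library size alone (-0.72), without shControl replicate 2 and without shMETTL3 replicate 2. HEXA, a beta-hexosaminidase subunit, rose by 0.47 after METTL3 knockdown, a call lost in 8 of 18 alternatives, DESeq2 and either shControl library left out among them (adjusted p up to 0.19). FUCA1, lysosomal fucosidase, was barely counted, with 3 and 6 raw counts in control, 2 and 1 in shControl, 9 and 11 in shMETTL3, and 2 and 3 in shMETTL14 cells. The 20 counts in shMETTL3 against 3 in shControl cells give a ratio of 5.73, with a 95% counting interval of 1.70 to 30.1. The edgeR test gave a log2 fold change of 2.43 (adjusted p = 0.034). FUCA1 reached the filter on low counts only through the shMETTL3 libraries, where it was highest, so this call depends on that selection. It was lost without a filter, with DESeq2 and without either shControl library, as was the call in the direct comparison. GAA, CTSA, LIPA and SMPD1 were called in none of these 4 comparisons. GUSB, CTSL and MAP1LC3B have close copies or pseudogenes in the genome, and how reads shared with them were counted is not given in the sources used here.

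In the membrane group, NPC1, which exports cholesterol from the lysosome, rose at each of 2 steps. Its normalized count was 61.1 and 64.4 in control, 194 and 218 in shControl, 415 and 345 in shMETTL3, and 269 and 275 in shMETTL14 cells. No group overlapped another. The log2 fold change was 1.71 ± 0.17 in senescence (adjusted p = 1e-08) and 0.88 ± 0.14 after METTL3 knockdown (adjusted p = 5.1e-05). METTL14 knockdown gave 0.40 (adjusted p = 0.054). NPC2, its soluble partner, passed in none of these comparisons and gave -0.25 in senescence.

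CD63 rose by 0.46 in senescence and fell by 0.69 after METTL3 and 0.47 after METTL14 knockdown. Its normalized count was 573 and 625 in control, 842 and 804 in shControl, 509 and 513 in shMETTL3, and 628 and 563 in shMETTL14 cells. Both knockdown groups were below shControl, and shMETTL14 overlapped control. Of these calls, the fall after METTL3 knockdown held with each library left out. With library size alone none of the 3 passed, at -0.04 in senescence, -0.07 after METTL3 and -0.11 after METTL14 knockdown. MCOLN1, a lysosomal calcium channel, was at 20.1 and 20.0 in shControl, 33.9 and 12.3 in shMETTL3, and 39.98 and 45.3 in shMETTL14 cells. It rose after METTL14 knockdown by 1.08 ± 0.38 (adjusted p = 0.041), a call lost without control replicate 1 or any 1 of the shControl and shMETTL14 libraries. The major membrane glycoproteins LAMP1 and LAMP2 gave 0.12 and 0.34 in senescence and passed in neither knockdown.

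Of the 7 proton pump members, 3 rose in senescence and none fell, beside 13.3% of all genes in either direction. ATP6V1B2, a subunit of the catalytic head, went from 104 and 94.9 to 236 and 219 normalized counts, with no overlap, and gained 1.19 ± 0.17 (adjusted p = 2.8e-06). It stayed at 189.6 to 248 in the knockdown libraries. ATP6AP1, an accessory subunit, rose by 0.75 and ATP6V0A1, a membrane subunit, by 0.69. Both calls were lost with library size alone (0.25 and 0.20) and without control replicate 1. That of ATP6AP1 was also lost with DESeq2 and without shControl replicate 1, and that of ATP6V0A1 without shControl replicate 2. ATP6V1H, a regulatory subunit, was at 219.9 and 228 in shControl, 348 and 385 in shMETTL3, and 224 and 243 in shMETTL14 cells. The shMETTL3 libraries stood above the others, a gain of 0.71 ± 0.14 (adjusted p = 0.00039).

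ATP6V1A, the catalytic subunit, was at 236 and 234 in shControl, 238 and 342 in shMETTL3, and 143 and 160.1 in shMETTL14 cells. It fell after METTL14 knockdown by 0.63 ± 0.17 (adjusted p = 0.0077), and METTL3 knockdown gave 0.31 (adjusted p = 0.17). The direct comparison gave -0.94 (adjusted p = 6.2e-05). ATP6V0D1, a subunit of the membrane sector, was at 109 and 144 in shControl and 206 and 169 in shMETTL14 cells, a rise of 0.57 ± 0.17 (adjusted p = 0.02). ATP6V1C1 rose by 0.39 after METTL3 knockdown at an adjusted p of 0.049, a call lost in 12 of 18 alternatives, DESeq2 among them. After METTL14 knockdown 1 of the 7 pump members thus rose and 1 fell, beside 9.15% and 12% of all genes. Both calls were lost with DESeq2, without shControl replicate 1 and without shMETTL14 replicate 1, that of ATP6V1A also without shControl replicate 2 and with library size alone (-0.28).

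Of the MiT/TFE factors, MITF fell in senescence and after METTL14 knockdown, and TFE3 fell after METTL3 knockdown. The METTL14 call of MITF was lost in 9 of 18 alternatives, with -0.33 without shMETTL14 replicate 2 and -0.16 with library size alone. MITF was at 339 and 299 normalized counts in control, 161 and 131 in shControl, 162 and 186 in shMETTL3, and 116 and 87.4 in shMETTL14 cells. All 6 senescent libraries were below both control libraries. The log2 fold change was -1.13 ± 0.16 in senescence (adjusted p = 4.1e-06), a call kept under each alternative tried. It was -0.52 ± 0.18 after METTL14 knockdown (adjusted p = 0.044) and 0.26 after METTL3 knockdown (adjusted p = 0.3). The METTL14 call was lost without either control library, either shControl library or shMETTL14 replicate 2, where the value was -0.33.

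TFE3 was at 84.1 and 81.0 in control, 94.6 and 115 in shControl, 49.2 and 38.0 in shMETTL3, and 105 and 82.1 in shMETTL14 cells. The shMETTL3 libraries were the lowest of all 8. TFE3 fell by 1.27 ± 0.22 after METTL3 knockdown (adjusted p = 0.00014), and senescence (0.34, adjusted p = 0.22) and METTL14 knockdown (-0.16, adjusted p = 0.62) did not pass. TFEB was barely counted, at 18 and 19 raw counts in control, 2 and 10 in shControl, 5 and 2 in shMETTL3, and 4 and 3 in shMETTL14 cells. Its log2 fold change of -1.23 ± 0.59 in senescence did not pass (adjusted p = 0.13). It was -2.71 without shControl replicate 2 and -0.53 without shControl replicate 1, and it passed with library size alone (-1.71, adjusted p = 0.016). Without shControl replicate 2 the values of -0.96 after METTL3 and -0.91 after METTL14 knockdown turned to 0.52 and 0.57, none of them past the test. Against control cells it was -2.19 in shMETTL3 (adjusted p = 0.0087) and -2.14 in shMETTL14 cells (adjusted p = 0.01). TFEB reached the filter on low counts only through the control libraries, where it was highest, so these 2 calls depend on that selection.

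**Figure D2:**
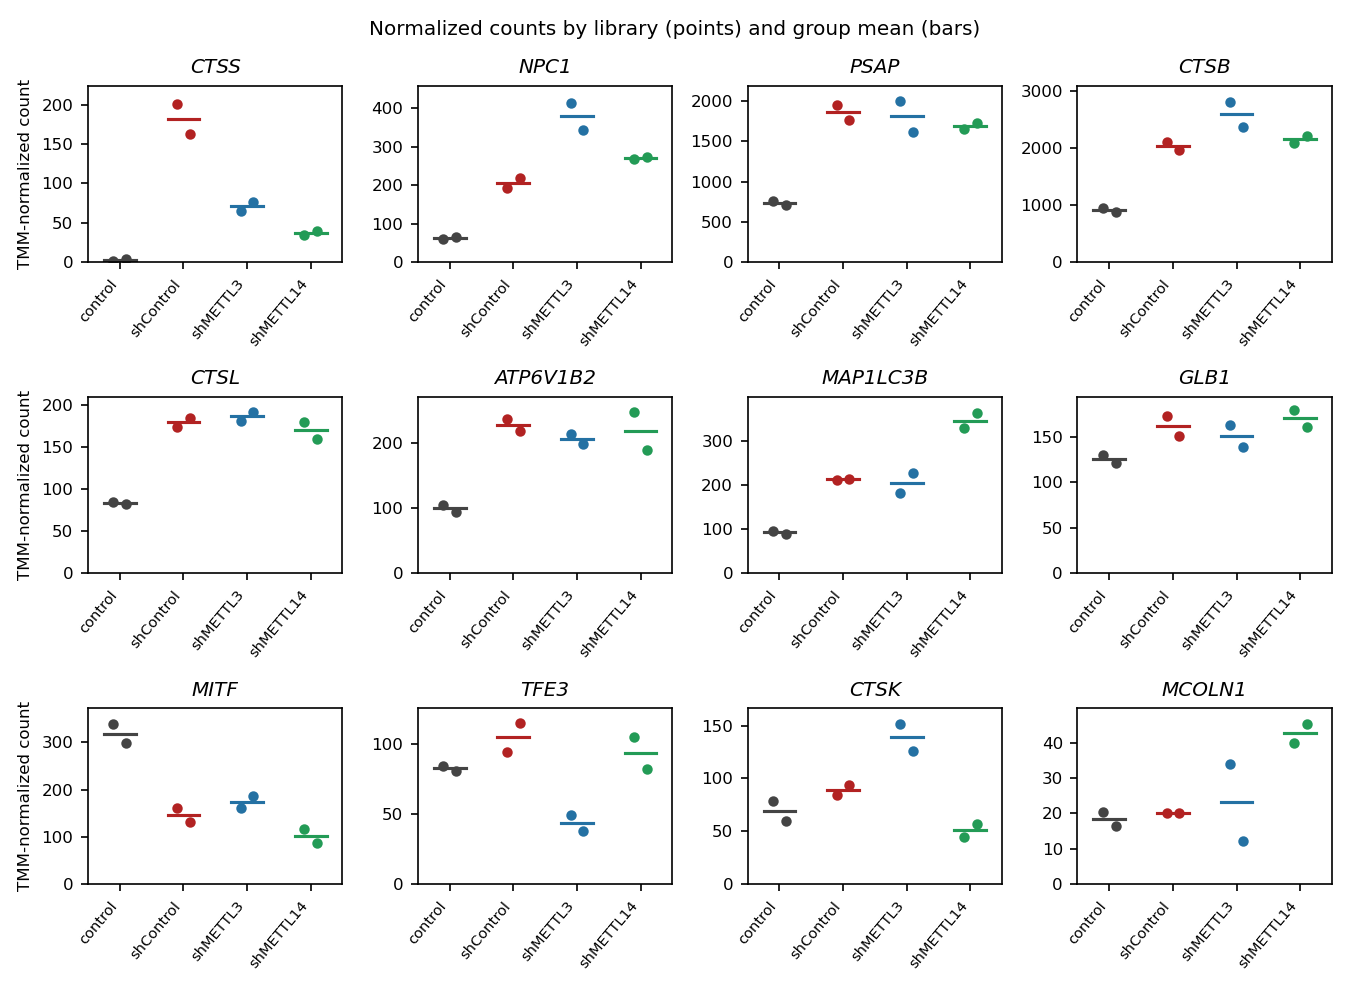
Normalized count (vertical axes, linear from 0) of 12 members in the 2 libraries of each group, with a bar at the group mean. CTSS is near 0 in control and highest in shControl cells (201 and 162), NPC1 is highest in shMETTL3, TFE3 lowest in shMETTL3 and MAP1LC3B highest in shMETTL14 cells.

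Of the 5 initiation and nucleation genes, 1 fell in senescence and none rose, a share near the 13.3% of all genes that fell. ULK2, a kinase that starts autophagosome formation, fell by 0.98, a call lost without control replicate 2 or without shControl replicate 2, and ULK1 and BECN1 were called in none of the 4 comparisons. UVRAG, a subunit of the VPS34 complex, was at 299 and 293 in shControl, 494 and 552 in shMETTL3, and 352 and 371 in shMETTL14 cells. The groups did not overlap, and the gain after METTL3 knockdown was 0.82 ± 0.14 (adjusted p = 6.1e-05), or 0.44 with an offset for gene length (adjusted p = 0.012). METTL14 knockdown gave 0.29 (adjusted p = 0.15). WIPI1, which binds the lipid that VPS34 makes, was at 176 and 155 in shControl, 198 and 201 in shMETTL3, and 99.9 and 119 in shMETTL14 cells, a fall of 0.60 ± 0.17 after METTL14 knockdown (adjusted p = 0.012). That call was lost with DESeq2, with library size alone (-0.24), without shControl replicate 1 and without shMETTL14 replicate 1. WIPI1 lies wholly inside PRKAR1A on the opposite strand and shares 22.3% of its span with ARSG. The ARSG count was 139 and 162 in control, 970 and 920 in shControl, 846 and 831 in shMETTL3, and 392 and 472 in shMETTL14 cells. The outer gene had no fewer counts in every library in 313 of 315 pairs of opposite-strand genes of which 1 lies inside the other, although the table's header records a strand option of the counting tool. Reads of the 2 strands are therefore treated here as not told apart, and the part of these neighbours in the WIPI1 value was not tested.

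In the conjugation group, MAP1LC3B, which encodes LC3B, was at 96.5 and 88.0 in control, 212 and 214 in shControl, 183 and 226 in shMETTL3, and 328 and 362 in shMETTL14 cells. Control was lowest and shMETTL14 highest, with shControl inside the range of shMETTL3. The gain was 1.20 ± 0.16 in senescence (adjusted p = 1.8e-06) and a further 0.70 ± 0.15 after METTL14 knockdown (adjusted p = 0.0009), and both calls held under each alternative tried. METTL3 knockdown gave -0.06 (adjusted p = 0.83). ATG5, of the conjugation complex, rose by 0.54 after METTL14 knockdown, a call lost in 4 of 18 alternatives. GABARAPL1, an LC3 relative, was called in none of these comparisons, with -0.57 and -0.66 after METTL3 and METTL14 knockdown.

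ATG16L1, which places the conjugation complex on the membrane, had a log2 fold change of 1.04 in senescence (adjusted p = 9.7e-06). Its raw count was 133 and 120 in control, 185 and 213 in shControl, 309 and 292 in shMETTL3, and 243 and 262 in shMETTL14 cells. SCARNA5 and SCARNA6, small Cajal body RNAs encoded inside the gene on the same strand, have rows of their own. Their counts made up 49.6 and 55.0% of the ATG16L1 count in control and 68.5 to 83.2% in the senescent libraries. With them subtracted, 67 and 54 counts were left in control, 48 and 67 in shControl, 61 and 49 in shMETTL3, and 73 and 74 in shMETTL14 cells. The remaining log2 fold change in senescence was 0.31 and did not pass (adjusted p = 0.37).

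**Figure D3:**
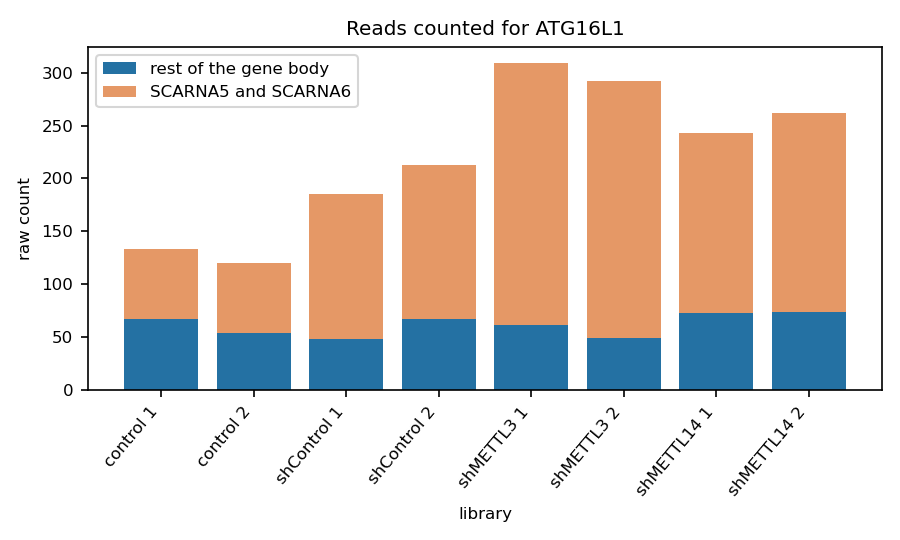
Raw count of ATG16L1 in each of the 8 libraries, split into reads also counted for the small RNA genes SCARNA5 and SCARNA6 (orange) and the rest of the gene body (blue). The blue part stays between 48 and 74 counts, and the orange part is largest in the shMETTL3 libraries (248 and 243).

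Among the cargo receptors, SQSTM1 was at 863 and 839 in shControl, 834 and 714 in shMETTL3, and 1234 and 1143 in shMETTL14 cells. It rose by 0.48 after METTL14 knockdown (adjusted p = 0.013). OPTN, optineurin, was at 193 and 177 in shControl, 163 and 237 in shMETTL3, and 115 and 136 in shMETTL14 cells, and fell by 0.56 (adjusted p = 0.026). Both calls were lost without either shControl library and without shMETTL14 replicate 1, and that of OPTN also with DESeq2 and with library size alone (-0.21). Neither was called in senescence or after METTL3 knockdown, and the shMETTL3 libraries of OPTN spanned the shControl values.

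In the direct comparison of shMETTL14 with shMETTL3 cells, the members higher were TFE3 (1.11), CTSZ (0.90), MAP1LC3B (0.75), ATG12 (0.74), SQSTM1 (0.62), CTSD (0.48) and LAMP1 (0.48), as log2 fold changes. Those lower included CTSK (-1.45), ULK2 (-0.99), ATP6V1A (-0.94), CTSS (-0.92), WIPI1 (-0.87), MITF (-0.77), OPTN (-0.68), ATP6V1H (-0.65), TPP1 (-0.65), UVRAG (-0.53), ATP6V1C1 (-0.50) and NPC1 (-0.48), with FUCA1 on 5 against 20 counts. The CTSD value was 0.22 without shMETTL3 replicate 2 (adjusted p = 0.29) and 0.84 without shMETTL3 replicate 1. Without shMETTL3 replicate 1 TPP1 was -0.39 (adjusted p = 0.072), without shMETTL3 replicate 2 OPTN was -0.36 (adjusted p = 0.14), and without shMETTL14 replicate 2 ULK2 was -0.60 (adjusted p = 0.32) and without shMETTL14 replicate 1 it was -1.55. The 7 members with CACGTG in the promoters searched were all above 0 here, from 0.22 to 0.90, as were 14 of the other 29 with a promoter, which ranged from -1.89 to 1.11. In senescence 7 of the 7 and 15 of the 29 were above 0, after METTL3 knockdown 2 and 17, and after METTL14 knockdown 5 and 13. Only CTSD and LAMP1 of the 7 passed the direct test, and no test of the difference between holders and others was made. The 7 ranged in length from 4230 bases (CD63) to 43172 bases (ATP6V0D1). Over all genes the median length was 18.9 kb for those higher in this comparison and 86.5 kb for those lower. The part of length in the holders' values was not tested, and the share above 0 among all tested genes with CACGTG was not computed.

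Called members differed in length. The median gene length was 52.0 kb for the 7 members that rose after METTL3 knockdown and 20.3 kb for the 7 that fell, and over all genes it was 113 kb and 23.3 kb. In the direct comparison it was 13.7 kb for members higher and 52.0 kb for members lower, and 18.9 kb and 86.5 kb over all genes. Members had a median of 28.4 kb against 33.3 kb for all genes tested. With an offset for gene length, 10 members rose and 5 fell after METTL3 knockdown, where 9.48% of all genes rose and 10% fell under the same offset. In senescence 22 rose and 2 fell, where 15% rose and 12.3% fell. In the direct comparison 5 were higher and 13 lower, where 15.2% were higher and 16.4% lower, and CTSD, CTSZ, ATG12, MITF, ULK2 and UVRAG lost their calls there. UVRAG went from -0.53 to -0.10 (adjusted p = 0.55). Calls that held but moved by over 1.5 times were those of CD63 after METTL3 knockdown (-0.37) and, in the direct comparison, TPP1 (-1.01), ATP6V1H (-0.36) and MAP1LC3B (0.46), besides that of UVRAG after METTL3 knockdown.

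**Figure D4:**
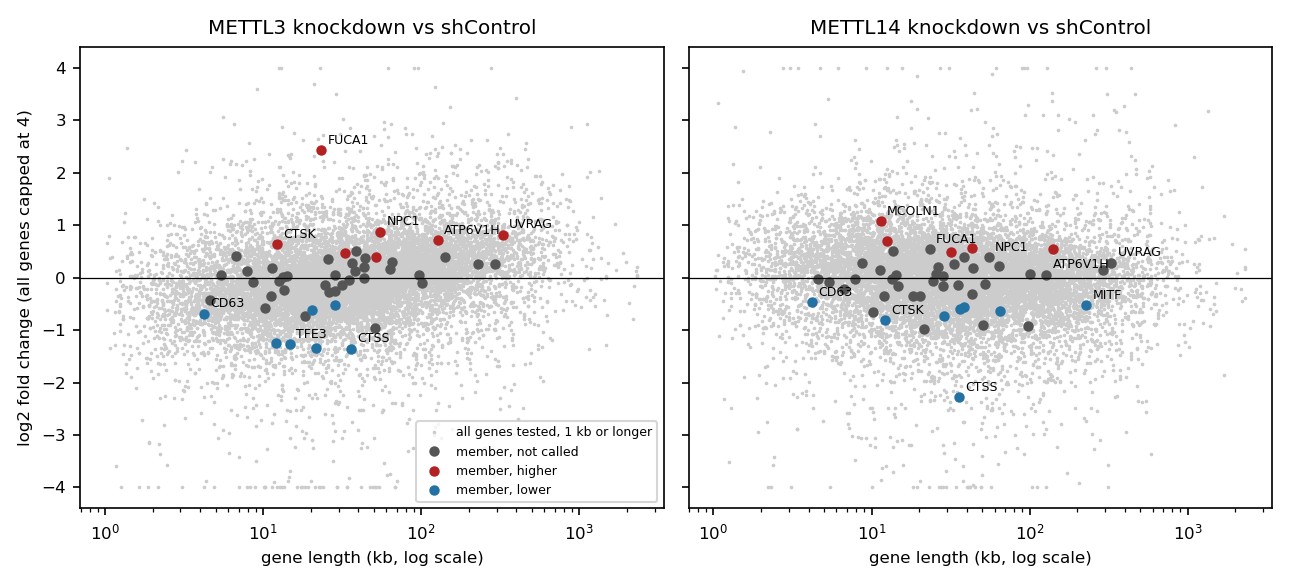
Log2 fold change after METTL3 (left) or METTL14 (right) knockdown against gene length in kb on a log axis. Grey points are all tested genes of 1 kb or longer, capped at 4 on either side, and larger points are members (red higher, blue lower, dark grey not called). On the left, the red members reach up to UVRAG at 329 kb while the blue members lie between 4.23 and 35.8 kb.

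Compared with control cells, shMETTL3 cells had 20 members higher and 8 lower, where 20.1% of all genes were higher and 20.1% lower. In shMETTL14 cells 21 members were higher and 7 lower, where 19.7% were higher and 20.5% lower. These comparisons share the control libraries with the senescence comparison. The log2 fold changes for PSAP were 1.33 in shControl, 1.29 in shMETTL3 and 1.19 in shMETTL14 cells. For CTSL they were 1.10, 1.15 and 1.01, and for ATP6V1B2 1.19, 1.05 and 1.13. For MITF they were -1.13, -0.87 and -1.64.

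Leaving out libraries one at a time bore on many calls. These refits do not cover the other alternatives. In senescence ATG16L1 lost its call with the nested small RNA counts subtracted (0.31), and CTSS was not tested at 10 or more counts in every library. Of the 16 gains in senescence, 8 were kept in each of the 8 refits (CTSB, CTSL, CTSS, PSAP, NPC1, ATP6V1B2, ATG16L1 and MAP1LC3B). Without shControl replicate 1, 9 of the 16 remained, and without shControl replicate 2, 13. Without control replicate 1 it was 11, and without control replicate 2 it was 15. Of the 7 gains after METTL3 knockdown, NPC1, ATP6V1H and UVRAG were kept in each refit, and of the 7 falls CTSS, CTSZ, CD63 and TFE3. Without either shControl library 3 of these gains and 5 of these falls remained, without shMETTL3 replicate 1 it was 5 and 7, and without shMETTL3 replicate 2 it was 5 and 4. After METTL14 knockdown, MAP1LC3B was the 1 gain and CTSS the 1 fall kept in each. Without shControl replicate 1 or without shMETTL14 replicate 1, 1 of the 5 gains and 3 of the 8 falls after METTL14 knockdown remained, and without shControl replicate 2 it was 2 and 2. In the direct comparison, 3 of 7 and 6 of 13 were kept in each refit, with the fewest left without shMETTL14 replicate 1 (3 and 7). With DESeq2 the calls of TPP1, ASAH1, ATP6AP1 and ULK2 were lost in senescence, those of HEXA, CTSK, FUCA1, ATP6V1C1, GUSB, ASAH1 and MAN2B1 after METTL3 knockdown, and those of MCOLN1, ATP6V0D1, ATG5, CTSK, ASAH1, ATP6V1A, MITF, WIPI1 and OPTN after METTL14 knockdown. With library size alone the calls of CTSD, TPP1, ASAH1, MAN2B1, IDS, CD63, ATP6V0A1 and ATP6AP1 were lost in senescence. So were those of GUSB, CTSZ, ASAH1, MAN2B1 and CD63 after METTL3 knockdown and those of CTSK, ASAH1, CD63, ATP6V1A, MITF, WIPI1 and OPTN after METTL14 knockdown, all of them falls.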

How the data were processed

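fastGRO-seq libraries of nascent RNA were made for 4 groups, 2 per group. The authors aligned to hg19 and counted reads with HOMER across each gene from start to end, so that introns count too. The deposited raw counts were not normalized. STAR and deepTools are named in the submitters' processing notes. Groups were taken from the sample labels. Gene length is the authors' own column.

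All comparisons used edgeR 4.0.16 under R 4.3.3 (TMM, filterByExpr with a minimum count of 10, and 1 quasi-likelihood fit over the 4 groups), with a Benjamini-Hochberg adjusted p below 0.05 over all 12844 genes tested. Of 27945 rows, 6423 had no count in any library. The scripts were tested on simulated data. Alternatives were DESeq2 1.42.0, library size alone, upper quartile, other filters, only the groups compared, a replicate block, no ribosomal RNA rows, an adjusted p below 0.01 and each library left out. Subtraction of nested small RNA counts and a gene length offset (lowess span 0.3) were added after seeing the data. P-values rest on a spread between libraries that the main fit pooled over the 4 groups. Over members with enough counts, the shMETTL3 libraries differed by 6.51 times the counting variance, against 1.31 to 1.60 in the other groups. The pooled spread may therefore be smaller than that of the shMETTL3 group, and p-values of comparisons with shMETTL3 cells may be too small. A fit with a separate spread for each group was not made. Intervals from counts cover counting error only.

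The members, roles and lists were chosen with earlier results of these data known. Per-library values are given for GLB1, the MiT/TFE factors and up to 8 called members with the largest change in each comparison with control or shControl cells, and CD63, ATG16L1, SQSTM1 and OPTN were added after their values were seen. Motif counts used RefSeq promoters of GRCh38.p14, found for 36 members. Figures were drawn with matplotlib 3.10.9.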

Additional observations from a re-analysis of the deposited data

Results flagged for a closer look

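For 8 members the estimates of the 2 knockdowns against shControl had opposite signs and the direct comparison of shMETTL14 with shMETTL3 cells passed the test (edgeR quasi-likelihood, Benjamini-Hochberg), and at least 1 of the knockdowns passed against shControl as well. CTSK differed by -1.45 on the log2 scale (adjusted p = 5.2e-06), from 0.64 after METTL3 and -0.80 after METTL14 knockdown. It is the only one of the 8 that passed against shControl on both sides. The direct log2 difference was -0.94 for ATP6V1A, -0.50 for ATP6V1C1, -0.77 for MITF, -0.87 for WIPI1 and -0.68 for OPTN, each higher in shMETTL3 cells. It was 0.75 for MAP1LC3B and 0.62 for SQSTM1, higher in shMETTL14 cells. WIPI1 overlaps ARSG, which had more counts in shMETTL3 than in shMETTL14 cells, and the part of this overlap was not tested. For 4 of the 8 the value of 1 knockdown was within its SE of 0 (MAP1LC3B -0.06 ± 0.15, SQSTM1 -0.14 ± 0.14 and OPTN 0.12 ± 0.17 after METTL3, ATP6V1C1 -0.12 ± 0.15 after METTL14), so its sign is not settled. Scaling by library size alone moved the median of all genes by more than these values. The ATP6V1C1 and OPTN differences lost the threshold without shMETTL14 replicate 1, OPTN also without shMETTL3 replicate 2, MITF with an offset for gene length, and SQSTM1 with library size alone (adjusted p = 0.069). For TPP1 (-0.65), ULK2 (-0.99), ATG12 (0.74), LAMP1 (0.48) and CTSD (0.48) the estimates also had opposite signs and the direct comparison passed, but neither knockdown passed against shControl. The METTL3 value of ULK2 was 0.06 ± 0.34. Each of these 5 direct calls was lost with at least 1 library left out, where TPP1 came to -0.39, ULK2 to -0.60 and CTSD to 0.22.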

How the results depend on the processing

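Of 1352 values from alternatives over 76 results, 1151 kept direction and side of the threshold, 179 kept the direction but lost the call and 5 kept it and gained a call. Another 13, of GLB1, TFEB, TFE3 and MITF, changed sign without passing on either side, 5 with library size alone, 7 with a library left out and 1 with the length offset. The 4 that changed sign and passed on 1 side did so with library size alone: CD63 in senescence (-0.041) and, after METTL3 knockdown, GLB1 (0.51, adjusted p = 0.039, edgeR), ASAH1 (0.083) and MAN2B1 (0.0025). That scaling gave 8 members higher and 13 lower in senescence, 29 and 2 after METTL3 knockdown, 17 and 1 after METTL14 knockdown, and 2 and 16 between the knockdowns. It leaves the median of all genes away from 0. DESeq2 gave 13 and 1, 4 and 4, 2 and 2, and 4 and 11 in the same order. An adjusted p below 0.01 gave 14 and 1, 3 and 4, 1 and 3, and 5 and 11. Without a filter, 4 members rose after METTL3 knockdown. The shares of all genes were not computed with DESeq2, at 0.01 or without a filter. These counts therefore do not show whether the members moved more than other genes. The causes of these shifts were not tested.

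With 1 library left out, members higher ranged from 9 to 20 and lower from 1 to 2 in senescence, from 3 to 8 and 4 to 10 after METTL3 knockdown, from 1 to 7 and 2 to 10 after METTL14 knockdown, and from 3 to 9 and 7 to 12 between the knockdowns. A group with 1 library left was assumed to vary like the others. The shares of all genes were not computed for these refits, so the ranges do not show whether the members moved more than other genes. With the replicate number as a replicate block, the counts were 16 and 2, 7 and 7, 5 and 8, and 8 and 12. Samples of the same number showed little shared deviation (correlation -0.039 to 0.10). Counting noise pulls such a correlation towards 0, so it cannot exclude that equal numbers share a culture or batch. At 10 or more counts in every library, CTSS was not tested because of its 2 and 5 control counts. FUCA1 and TFEB also rest on few counts.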

Other observations

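Other genes of the same pathways, from a list of 131 of which 119 were tested, were counted in the same comparisons. In senescence 27 rose and 10 fell (22.7% and 8.40%, against 13.3% and 13.3% of all genes), and of 13 further proton pump genes 6 rose and none fell. The largest rises were in GLA (alpha-galactosidase, log2 fold change 1.85), which lies within a read-through gene on the opposite strand, and in the pump genes ATP6V0B (1.68) and ATP6V0C (1.10). The largest falls were in RRAGB (-1.35), a Rag GTPase of nutrient sensing, FNIP2 (-0.97) and EPG5 (-0.88). After METTL3 knockdown 15 rose and 8 fell (12.6% and 6.72%, against 12.3% and 11.2%). MANBA, beta-mannosidase, rose by 1.43, from 290 and 283 counts to 785 and 1022, while CTSC fell by 1.07, DDIT4 by 0.89 and LITAF by 0.80. After METTL14 knockdown 12 rose and 13 fell (10.1% and 10.9%, against 9.15% and 12%). SESN2, a leucine sensor, rose by 1.82, from 55 and 48 counts to 224 and 184. SORT1, a sorting receptor for lysosomal enzymes, fell by 1.79, TPCN1 by 1.09 and ATP6AP2 by 1.05.

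TFEC, the MiT/TFE gene outside the 48, and ATP6V0D2 were called higher after both knockdowns on few counts. Both reached the filter on low counts only through the knockdown libraries, where they were high, so these calls depend on that selection. TFEC had 0 and 2 counts in control, 1 and 0 in shControl, 8 and 20 in shMETTL3, and 37 and 17 in shMETTL14 cells. ATP6V0D2 had 0 and 0, 3 and 1, 18 and 10, and 9 and 18 counts in the same order.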
